A study of Mus musculus with 6 samples.

Results

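Leukaemia inhibitory factor (LIF) signalling in mouse embryonic stem cells was described through 10 genes: the ligand Lif, the receptor chains Lifr and Il6st, the kinase Jak1, the transcription factor Stat3, the inhibitors Socs2, Socs3 and Cish, and the targets Icam1 and Pim1. The members were every probe set that the platform annotation assigns to exactly 1 of these genes, which gave 29 of the 45101 probe sets on the array. The tested cells were Gsk-3a-/-; Gsk-3b-/- embryonic stem cells (3 samples, called DKO), which lack both genes of glycogen synthase kinase-3, and they were compared with wild-type cells of the line E14K (3 samples). Both were grown without feeders on gelatin in 15% serum and 1000 units/ml of ESGRO, a LIF preparation, so added LIF was present in every sample. RNA was collected with TRIzol, and 25 ng was amplified and labelled for each array. The labels give neither the parental line nor the number of clones of the DKO cells, so differences between cell lines and the loss of Gsk-3 cannot be told apart. They also do not say whether replicates were separate cultures, so a p-value here measures only how far these samples spread, possibly for technical reasons.

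LIF binds its receptor Lifr, which pairs with gp130, the product of Il6st and the chain shared by the interleukin-6 family of cytokines. Jak kinases bound to these chains phosphorylate them and Stat3, which then dimerises, enters the nucleus and binds DNA. In mouse embryonic stem cells grown in serum this signal maintains self-renewal. Stat proteins also switch on their own brakes: Socs proteins and Cish bind the receptor or the kinase and dampen the signal. Gsk-3 is a kinase that acts downstream of PI3K and restrains Wnt signalling.

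Values are the deposited intensities of a probe set on each array, and differences are DKO minus wild-type on the log2 scale with the moderated standard error (SE) of limma. A probe set was tested if its intensity was at least 16 (log2 of 4) on at least 3 of the 6 arrays. The number of arrays limits the precision of every value. Gsk3a, the probe set of a targeted gene, read 145, 135 and 66 in DKO cells and 403, 238 and 239 in wild-type cells (difference -1.38, SE 0.36, adjusted p = 0.0942). With the same-numbered arrays paired as a block (the replicate block), Gsk3a passed (adjusted p = 0.00646). The brightest of the Gsk3b probe sets read 1122, 1495 and 1472 in DKO cells and 1481, 1547 and 1655 in wild-type cells (adjusted p = 0.832). The other tested Gsk3b probe sets differed by -0.71 to -0.02 (adjusted p 0.508 to 0.995), with overlap in each. Where these probe sets lie relative to the deleted parts was not known here. Replicate 3 of both genotypes stood apart in its hybridisation spike-in controls, with mean log2 signals of 9.50 in DKO and 9.91 in wild-type against 1.73 to 1.85 on the other arrays. The labels name no batch, and this split, called the spike-in block where it enters a fit, rests on those controls alone. The 3' over 5' signal of 3 control transcripts, which falls with longer RNA, was 1.83 to 2.44 log2 units in DKO and 1.64 to 2.30 in wild-type. The 6 embryonic stem cell markers summed to intensities of 17730 to 19733 in DKO and 18956 to 20935 in wild-type cells. The 6 primitive endoderm markers, all tested, summed to 2591 to 4505 in DKO and 964 to 3512 in wild-type cells, lowest in wild-type replicate 3. They did not move together. Dab2 read 140, 133 and 214 in DKO and 718, 761 and 150 in wild-type cells (difference -1.45, adjusted p = 0.305). Over replicates 1 and 2 its difference was -2.44 (adjusted p = 0.00579). Gata4, Gata6, Sox17, Foxa2 and Pdgfra ran the other way, by 0.62 to 1.26 (adjusted p 0.33 to 0.639). Of these, Gata6 and Foxa2 did not overlap between the genotypes. The 6 fibroblast markers summed to 160 to 262 in DKO and 210 to 433 in wild-type cells, with 3 of the 6 tested and Col3a1 and Lum under 16 on every array. Col1a1 read 105, 73 and 76 in DKO and 316, 135 and 221 in wild-type cells, without overlap. Its difference was -1.34 (adjusted p = 0.0805, and 0.00506 with the replicate block). The other tested markers, Col1a2 and Thy1, ran the other way (differences 0.75 and 0.44, adjusted p = 0.558 and 0.792). The 6 trophoblast markers, 2 of them tested and Elf5 and Hand1 under 16 throughout, summed to 1275 to 3384 in DKO and 3204 to 3853 in wild-type cells. Most of that sum was Tfap2c, at 1011 to 3069 in DKO and 3108 to 3709 in wild-type cells. Eomes, the other tested one, ran the other way, at 189 to 291 in DKO and 68 to 135 in wild-type cells (difference 1.24, adjusted p = 0.0787, and 0.00734 with the replicate block). The 3 endothelial markers, 1 of them tested and Cdh5 under 16 throughout, summed to 40 to 54 in DKO and 30 to 38 in wild-type cells. Of 4 named blood markers 1 was tested, Ptprc and Lyz2 were under 16 throughout, and the sums were 68 to 182 in DKO and 65 to 138 in wild-type cells. The part of these markers, of RNA length and of other cells in the results below was not tested.

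Cish and Icam1 fell in DKO cells, and Socs2 read lower on all 6 of its probe sets, of which 1 passed the test. No probe set of Lif, Lifr, Il6st, Jak1, Stat3, Socs3 or Pim1 passed. In a bulk sample, fewer cells with a transcript and less of it per cell cannot be told apart. Of the 29 member probe sets 24 were tested, at least 1 for each gene, and 3 of these (12.5%) fell and 0 rose by limma, where 3.24% of all tested probe sets changed, 1.93% falling and 1.31% rising. At an unadjusted p under 0.05 the counts were 6 lower and 0 higher, where 7.02% of all tested probe sets were lower and 6% higher. Most of these 6 are probe sets of Socs2, which share the gene and the RNA. By gene, 2 of the 10 were lower and 0 higher at that threshold, where 7.77% of all genes were lower and 6.92% higher. Counted by the brightest probe set, 2 of the 10 genes passed (20%), where 4.13% of all 10496 genes tested passed and 2.5% fell. Cish, which is in all of these member counts, was tested only because its 3 wild-type arrays exceeded the filter. Socs2 probe sets 1442586_at, 1446085_at and 1441476_at each had a DKO array under 16 and also needed wild-type arrays to be tested. All of them are among the 6 at an unadjusted p under 0.05, and 1442586_at is among the 3 that passed. Such entry through the wild-type arrays favours a difference. The median difference over the 10 genes was -0.09, beside -0.0025 over all genes. With the replicate block, 6 member probe sets fell, 4 of them of Socs2, and 1 rose, where 9.57% of all probe sets passed and 5.26% fell. The genes that passed with it were again Cish and Icam1, where 10.7% of all genes passed and 5.63% fell. With the spike-in block 5 probe sets passed, 3 of them of Socs2, where 5.36% of all did. DKO and wild-type arrays were fully separate for 3 of the 10 genes (Socs2, Cish and Icam1, each lower in DKO), where 18.9% of all genes did not overlap and 10.4% had every DKO array lower. The 5 untested member probe sets, of Lif, Lifr, Il6st, Stat3 and Pim1, reached intensities of at most 6, 18, 11, 5 and 8 on any array.

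**Figure D1:**
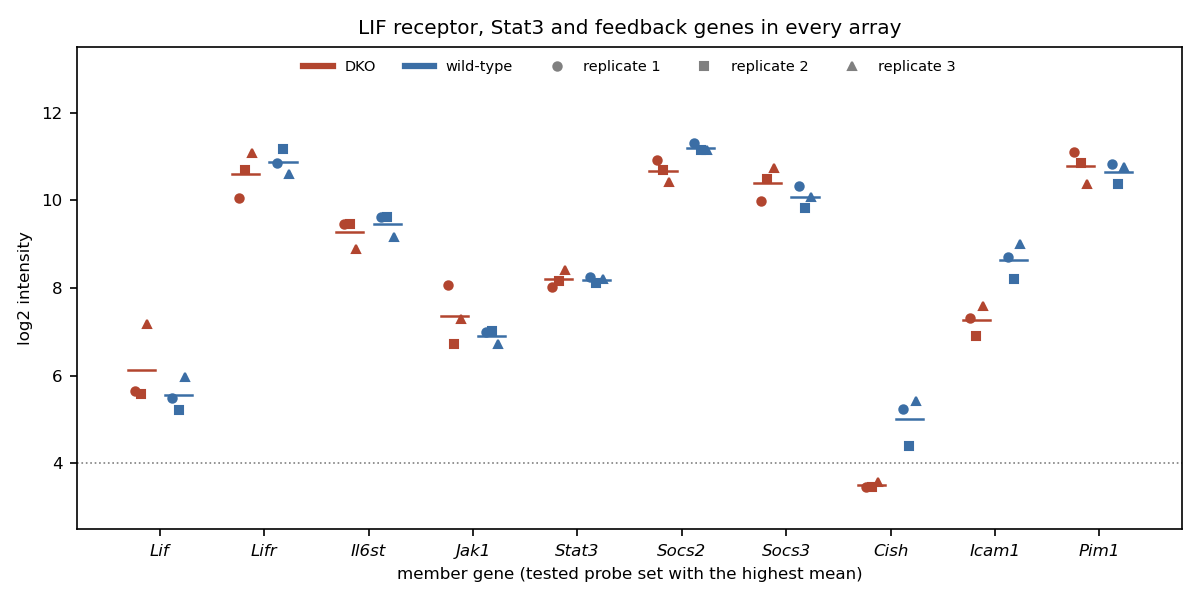
Log2 intensity of each of the 10 genes on its brightest tested probe set; points are arrays (shape gives the replicate number), bars are genotype means (n = 3), and the dotted line is the filter at 4. DKO and wild-type arrays do not overlap for Socs2, Cish and Icam1 and overlap for the other 7 genes.

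**Figure D2:**
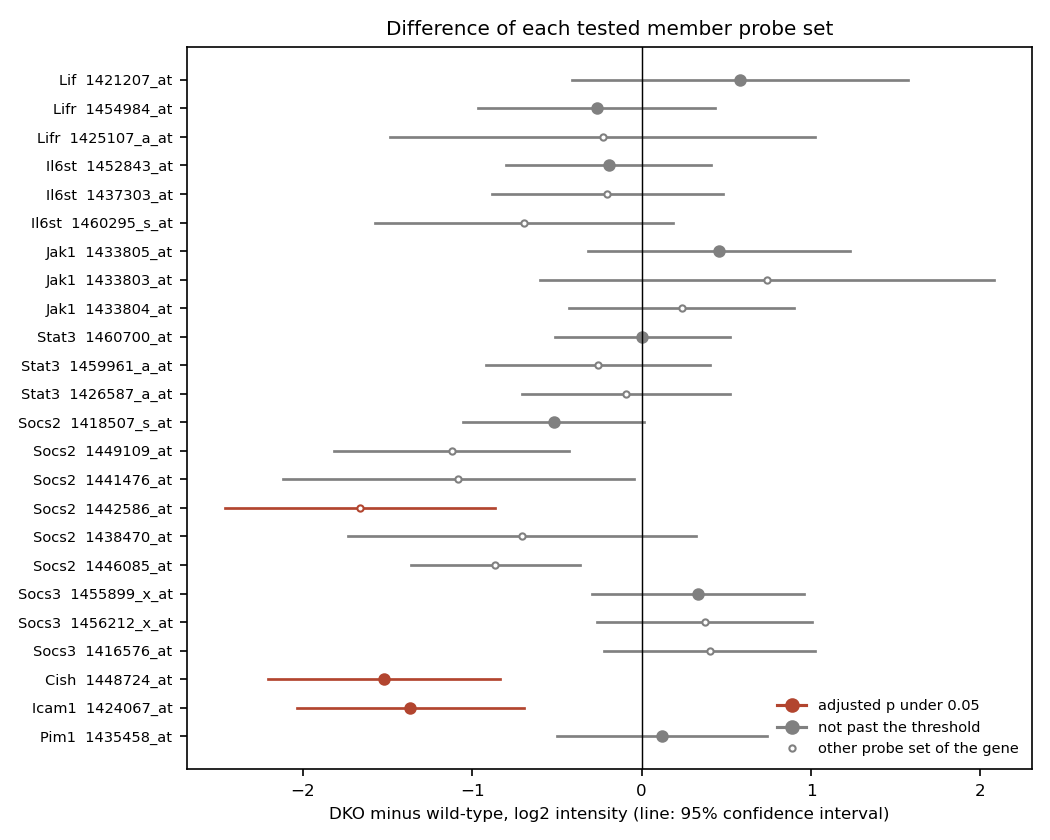
DKO minus wild-type log2 intensity of the 24 tested member probe sets with 95% confidence intervals, by gene. Cish, Icam1 and Socs2 probe set 1442586_at passed an adjusted p of 0.05; filled points stand for the gene, open points are its other probe sets.

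Lif, the ligand that the cells can also make themselves, did not pass. 1421207_at read 50, 48 and 146 in DKO cells, against 45, 37 and 63 in wild-type cells. DKO replicate 3 stood far above the other 5 arrays, and replicate 3 was the highest of both genotypes. The difference was 0.58 (95% interval -0.41 to 1.57, adjusted p = 0.702), or 0.26 over replicates 1 and 2 and 1.21 in replicate 3.

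The receptor chains did not pass. Lifr, the LIF-binding chain, read 1068, 1654 and 2153 in DKO cells, against 1845, 2292 and 1561 in wild-type cells on 1454984_at (difference -0.27, 95% interval -0.97 to 0.44, adjusted p = 0.84). The same-numbered differences were -0.79, -0.47 and 0.46, so replicate 3 alone, which stood apart in its spike-in controls, was higher in DKO. The dimmer 1425107_a_at did the same more widely, at 30, 15 and 88 in DKO cells, against 51, 38 and 33 in wild-type cells, with paired differences of -0.77, -1.34 and 1.42 (adjusted p = 0.936). On both probe sets, replicate 3 was the highest of the DKO arrays and the lowest of the wild-type arrays. Il6st, the gp130 chain, read 709, 702 and 478 in DKO cells, against 788, 789 and 573 in wild-type cells on 1452843_at. Replicate 3 was the lowest array of both genotypes, and the same-numbered differences ran from -0.26 to -0.15 (mean -0.19, adjusted p = 0.871). Its 3 tested probe sets were below 0 in all 9 same-numbered comparisons, from -0.70 to -0.19 on average. They share the gene and the RNA, so they are not replicates. None of them passed with or without the replicate block (lowest adjusted p 0.542 without and 0.0805 with it).

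Jak1, the kinase bound to gp130 and Lifr, gave positive differences on its 3 probe sets, from 0.24 to 0.74, and none passed without a block. 1433805_at read 268, 106 and 158 in DKO cells, against 128, 129 and 105 in wild-type cells (adjusted p = 0.699). DKO replicate 1 was high and DKO replicate 2 lay among the wild-type arrays. 1433803_at read 344, 144 and 85 in DKO cells, against 197, 94 and 49 in wild-type cells. Replicate 1 was high and replicate 3 low in both genotypes, each DKO array exceeded its same-numbered wild-type array, by 0.80, 0.62 and 0.79 log2 units, and the adjusted p was 0.73 without and 0.04998 with the replicate block. The dim 1433804_at read 47, 25 and 27 in DKO cells, against 30, 24 and 27 in wild-type cells (difference 0.24, adjusted p = 0.854).

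Stat3, the transcription factor at the end of the pathway, did not pass on any of its 3 tested probe sets. 1460700_at read 259, 286 and 342 in DKO cells, against 306, 277 and 296 in wild-type cells, a difference of 0.0046 with a 95% interval of -0.51 to 0.52 (adjusted p = 0.997). DKO arrays held both the lowest and the highest value. The other tested Stat3 probe sets were dim, at 25 to 35 in DKO and 27 to 50 in wild-type, and differed by -0.26 and -0.09 (adjusted p = 0.836 and 0.949). These are transcript levels, and the phosphorylation by which Stat3 is activated was not measured.

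Socs2, an inhibitor best known for restraining growth hormone and Stat5 signalling, was lower in DKO cells on every probe set. The differences ran from -1.66 to -0.52, and all 18 same-numbered comparisons (6 probe sets in 3 pairs) lay below 0. The probe sets share the gene and the RNA, so they are not replicates. The brightest, 1418507_s_at, read 1937, 1667 and 1369 in DKO cells, against 2555, 2262 and 2258 in wild-type cells. Every DKO array was below every wild-type array, yet the test was not passed (difference -0.52, SE 0.24, adjusted p = 0.403). The replicate block gave an adjusted p of 0.167. Its suffix _s marks probes that can match more than 1 transcript.

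The second brightest, 1449109_at, read 309, 306 and 460 in DKO cells, against 743, 564 and 1072 in wild-type cells, again without overlap. Its difference of -1.12 (SE 0.31, 95% interval -1.82 to -0.43) did not pass (adjusted p = 0.109), and it passed with the replicate block (adjusted p = 0.00815) and with the spike-in block (adjusted p = 0.0187). The probe set that passed, 1442586_at, read 11, 16 and 26 in DKO cells, against 40, 54 and 67 in wild-type cells. Replicate 3 was the highest array of both genotypes here, and the difference was -1.66 (SE 0.35, adjusted p = 0.0395). It was -1.81 over replicates 1 and 2 (adjusted p = 0.0364) and -1.37 in replicate 3. The call was lost without 4 of the 6 arrays in turn: DKO replicate 1, DKO replicate 2, wild-type replicate 2 and wild-type replicate 3 (adjusted p up to 0.156). It was also lost without the filter (adjusted p = 0.216) and with log2(value + 16) (adjusted p = 0.0636). The dim probe set 1446085_at read 13, 12 and 14 in DKO cells, against 24, 22 and 25 in wild-type cells (fitted difference -0.87, adjusted p = 0.0828). All its DKO arrays lay under the filter, so it was tested only through the wild-type arrays and the fold has only a limit, at least 1.48-fold lower in DKO. The adjusted p was 0.0251 with the replicate block, 0.044 with the spike-in block and 0.0268 without the filter. The remaining pair, 1441476_at and 1438470_at, overlapped between the genotypes, with differences of -1.08 (adjusted p = 0.348; 0.0176 under the replicate block) and -0.71 (adjusted p = 0.629). Over all tested probe sets, 16.7% had genotypes without overlap and 9.17% had every DKO array below every wild-type array, against 6 of the 24 member probe sets (25%): Cish, Icam1 and 4 of Socs2. Of these, Cish and 1446085_at were tested only through the wild-type arrays. With DKO replicate 1 under 16, 1442586_at also needed a wild-type array to be tested. Each of these favours a difference.

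**Figure D3:**
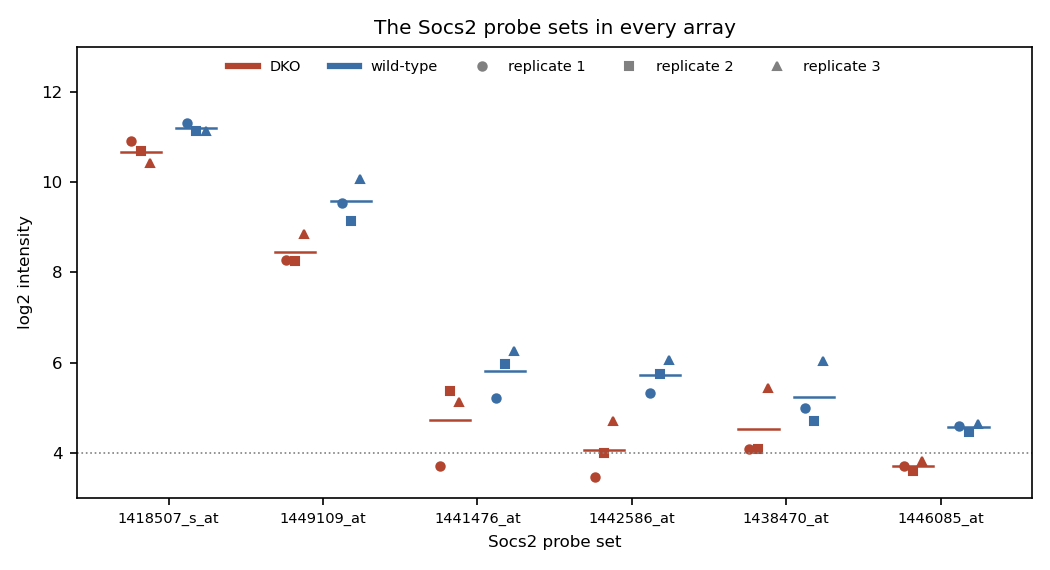
Log2 intensity of the 6 Socs2 probe sets on each array (points; shape gives the replicate number), with genotype means (bars, n = 3) and the filter at 4 (dotted). DKO minus wild-type means run from -1.66 to -0.52, and levels cannot be compared between probe sets.

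Socs3, the main feedback inhibitor of gp130 and a direct Stat3 target, did not pass. Its 3 probe sets differed by 0.33 to 0.40, and none passed (adjusted p 0.661 to 0.744). The brightest, 1455899_x_at, read 1012, 1436 and 1704 in DKO cells, against 1277, 901 and 1079 in wild-type cells. The groups overlapped, DKO replicate 1 lying between wild-type arrays, and the 95% interval of the difference was -0.29 to 0.96. The probe set 1416576_at read 102, 113 and 140 in DKO cells, against 72, 81 and 120 in wild-type cells, higher in all 3 same-numbered pairs but with overlap (adjusted p = 0.661). The suffix _x of the other 2 probe sets marks probes that may cross-hybridise.

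Cish, which encodes a cytokine-inducible inhibitor of the Socs family and is a textbook target of Stat5, fell in DKO cells. Its only probe set, 1448724_at, read 11, 11 and 12 in DKO cells, against 38, 21 and 43 in wild-type cells. Every DKO array lay under the filter and below every wild-type array, and wild-type replicate 2 was the lowest of the wild-type arrays. The log2 values were 3.50 ± 0.07 in DKO and 5.02 ± 0.55 in wild-type (SD, n = 3), a difference of -1.52 (SE 0.30, adjusted p = 0.0295). Because DKO cells were under the filter, the fold has only a limit: Cish was at least 2.03-fold lower in DKO. Its probe set was tested only because the 3 wild-type arrays exceeded the filter, which favours a difference. Without the filter the adjusted p was 0.158, and with log2(value + 16) it was 0.106. The difference was -1.36 over replicates 1 and 2 (adjusted p = 0.124) and -1.84 in replicate 3. When each array was left out in turn, Cish passed only without wild-type replicate 2 (adjusted p 0.0173 to 0.14).

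Icam1, a cell adhesion molecule whose transcription responds to Stat and NF-kB factors, read 160, 119 and 193 in DKO cells, against 416, 296 and 512 in wild-type cells. The genotypes did not overlap, and replicate 2 was the lowest array of both. The log2 values were 7.27 ± 0.35 in DKO and 8.64 ± 0.40 in wild-type (SD, n = 3), which is 2.58-fold lower in DKO (difference -1.37, SE 0.30, adjusted p = 0.0433). The same-numbered pairs differed by -1.38, -1.31 and -1.41, a narrow range. With the replicate block the adjusted p was 0.00237, and with the spike-in block 0.0119. Leaving out any 1 of the arrays ended the call in limma without a block (adjusted p 0.0508 to 0.156), as did testing without the filter (adjusted p = 0.177). Over replicates 1 and 2 the difference was -1.35 (adjusted p = 0.102). Icam1 is also made by fibroblasts and endothelium, whose marker sums are given above, and their part was not tested.

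The promoters of Cish, Icam1 and Socs3 are shown because they are the members whose start-site windows hold the letters TTCNNNGAA, the palindrome that Stat dimers bind, which reads the same on both strands. RefSeq (GRCm38.p6) windows from 250 bases before to 50 after the annotated start were available for 9 members, all but Socs2, in 11 windows. A match stood in 3 of these windows, each of another gene. Of all 32851 windows of that length, 8.30% held a match and 0.457% held at least 2. The windows below run 5′ to 3′ on the gene's strand through base 30 after the start, and capitals mark the matches. The Cish window is chr9:107296409-107296688 (+ strand), the Icam1 window chr9:21015690-21015969 (+ strand) and the Socs3 window chr11:117969337-117969616 (- strand).
Cish: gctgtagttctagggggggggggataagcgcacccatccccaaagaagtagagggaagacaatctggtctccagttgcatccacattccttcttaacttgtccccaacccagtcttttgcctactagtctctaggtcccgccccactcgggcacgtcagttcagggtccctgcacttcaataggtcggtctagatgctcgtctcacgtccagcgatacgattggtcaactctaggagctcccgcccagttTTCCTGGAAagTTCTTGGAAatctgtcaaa
Icam1: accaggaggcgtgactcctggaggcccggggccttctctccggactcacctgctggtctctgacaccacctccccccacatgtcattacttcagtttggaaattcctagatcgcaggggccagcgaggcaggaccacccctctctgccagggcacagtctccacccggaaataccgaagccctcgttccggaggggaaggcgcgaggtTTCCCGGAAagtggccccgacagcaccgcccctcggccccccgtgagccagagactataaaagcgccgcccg
Socs3: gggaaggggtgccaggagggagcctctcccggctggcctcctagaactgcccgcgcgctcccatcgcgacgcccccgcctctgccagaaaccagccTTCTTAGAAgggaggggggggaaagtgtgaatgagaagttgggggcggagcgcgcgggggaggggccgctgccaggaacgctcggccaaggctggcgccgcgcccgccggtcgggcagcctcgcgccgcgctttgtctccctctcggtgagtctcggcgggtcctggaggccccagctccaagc
Cish held 2 matches, TTCCTGGAA from base 1 and TTCTTGGAA from base 12 after the start. Icam1 held TTCCCGGAA from base -42, and Socs3 held TTCTTAGAA from base -154. Cish and Icam1 fell in DKO cells, and Socs3, with a match too, did not pass the test. The matches do not overlap each other and are a description of the letters, not of binding.

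Pim1, a serine/threonine kinase and Stat target, read 2195, 1860 and 1320 in DKO cells, against 1810, 1335 and 1738 in wild-type cells on 1435458_at. Its arrays overlapped, with a difference of 0.12 (95% interval -0.50 to 0.74, adjusted p = 0.932).

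The genes whose pattern was most like that of Cish and of Icam1 were looked up next. Likeness was measured as the root mean square distance of log2 values over the 6 arrays after subtracting each gene's mean, among 10159 candidate genes. The 3 genes nearest to Cish were Pde2a, a cyclic nucleotide phosphodiesterase (0.18), Prdm1, a transcriptional repressor (0.19), and Icam1 itself (0.22). Those nearest to Icam1 were Trim56, an E3 ubiquitin ligase (0.18), Ramp3, an accessory protein of peptide hormone receptors (0.18), and Kif26a, a kinesin family member (0.20). Pde2a read 14, 16 and 16 in DKO cells and 37, 25 and 55 in wild-type cells (difference -1.28, adjusted p = 0.0681, and 0.0116 with the replicate block). Prdm1 read 17, 15 and 14 in DKO cells and 41, 32 and 59 in wild-type cells (difference -1.48, adjusted p = 0.0229). Like Cish, both were lowest in wild-type replicate 2 among the wild-type arrays. Trim56, Ramp3 and Kif26a differed by -1.48, -1.19 and -1.30 (adjusted p = 0.0592, 0.043 and 0.0288), and for each, as for Icam1, replicate 2 was the lowest array of both genotypes. Trim56 passed with the replicate block (adjusted p = 0.0017). The calls of Prdm1 and Ramp3 were lost without 5 of the 6 arrays in turn and that of Kif26a without any 1 of the 6. Without the filter none of these 3 passed (adjusted p = 0.113 for Prdm1 and for Ramp3, and 0.0936 for Kif26a). The distances are a description over 6 arrays that share the genotype difference. Because the genes were chosen by this likeness, their shared fall and shared lowest replicate follow from the choice. Pde2a, Prdm1, Trim56 and Ramp3 each had a DKO array under 16 and needed wild-type arrays to be tested, which favours a difference.

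Around the members, a list of 36 other genes of gp130 cytokines, receptors, Jak and Stat proteins and their inhibitors was counted. Of these, 32 had a single-gene probe set and 24 were tested; 1 rose, 1 fell and 22 did not pass (8.33% called, beside the 4.13% of all genes), with a median difference of -0.05. Il6ra, the interleukin-6 receptor that also signals through gp130, rose. It read 225, 110 and 145 in DKO cells, against 34, 17 and 25 in wild-type cells, so the lowest DKO array was above the highest wild-type array. The difference was 2.65 (SE 0.35, adjusted p = 0.00396), or 6.29-fold, and it passed without any 1 of the 6 arrays and within replicates 1 and 2 (2.71, adjusted p = 0.0264), but not without the filter (adjusted p = 0.0786). Cntfr, the receptor of ciliary neurotrophic factor, which signals through Lifr and gp130, fell. It read 8, 18 and 16 in DKO cells, against 35, 59 and 42 in wild-type cells (difference -1.74, SE 0.36, adjusted p = 0.0327). With DKO replicate 1 under 16, Cntfr needed a wild-type array to be tested, which favours a difference. When each of the 6 arrays was left out in turn, the call held only without wild-type replicate 1 (adjusted p 0.0386 to 0.144). It was lost without the filter (adjusted p = 0.202) and with log2(value + 16) (adjusted p = 0.0589). Il6ra and Cntfr each had another probe set, under 16 on every array and untested.

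Stat5a, a transcription factor that activates Cish and Socs2 in other cells, did not pass. It read 218, 231 and 361 in DKO cells, against 125, 60 and 127 in wild-type cells, without overlap (difference 1.42, SE 0.35, adjusted p = 0.078). It passed with the replicate block (adjusted p = 0.00669), as did 5 other genes of the list. These were Il6ra, Cntfr and, outside the rule for named genes, Tyk2, a Jak kinase (difference 0.76), Stat4, a Stat factor best known from lymphocytes (difference -1.06), and Pias1, an inhibitor of Stat proteins (difference -0.85), whose adjusted p with the block were 0.0456, 0.014 and 0.033. Under the block 10.7% of all genes passed. Another probe set of Stat5a was under 16 on every array and untested.

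Among 17 further genes that LIF or Stat3 are known to induce, 15 were tested. Of these 2 fell, 0 rose by limma and 13 did not pass (13.3% called, where 4.13% of all genes passed and 2.5% fell), with a median difference of -0.06. At an unadjusted p under 0.05 there were 2 higher and 2 lower, where 6.92% of all genes were higher and 7.77% lower. Pim2, a kinase related to Pim1, read 82, 103 and 67 in DKO cells, against 699, 1157 and 798 in wild-type cells. It was 10.4-fold lower in DKO (difference -3.39, SE 0.28, adjusted p = 0.000452) and the difference was -3.29 over replicates 1 and 2 and -3.57 in replicate 3. Zfp36, a protein that promotes decay of AU-rich messages, read 69, 66 and 41 in DKO cells, against 187, 239 and 202 in wild-type cells (difference -1.87, SE 0.28, adjusted p = 0.00711). Both passed whichever of the 6 arrays was left out, and without the filter Pim2 passed and Zfp36 did not (adjusted p = 0.0144 and 0.0606). Bcl6, a transcriptional repressor, read 182, 489 and 473 in DKO cells, against 125, 118 and 218 in wild-type cells (difference 1.24, adjusted p = 0.214), and passed with the replicate block (adjusted p = 0.0243). Its genotypes overlapped through DKO replicate 1. Another probe set of Bcl6 was under 16 on every array and untested.

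The transcription factors through which LIF is known to maintain naive pluripotency did not pass. Tfcp2l1 read 2859, 2810 and 2323 in DKO cells, against 1508, 1394 and 1889 in wild-type cells (difference 0.74, adjusted p = 0.179). Its arrays did not overlap, and the difference was 0.97 over replicates 1 and 2 and 0.30 in replicate 3. Klf4, Klf5 and Gbx2 differed by 0.30, 0.36 and -0.06 (adjusted p = 0.732, 0.684 and 0.983), with overlap in each.

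**Figure D4:**
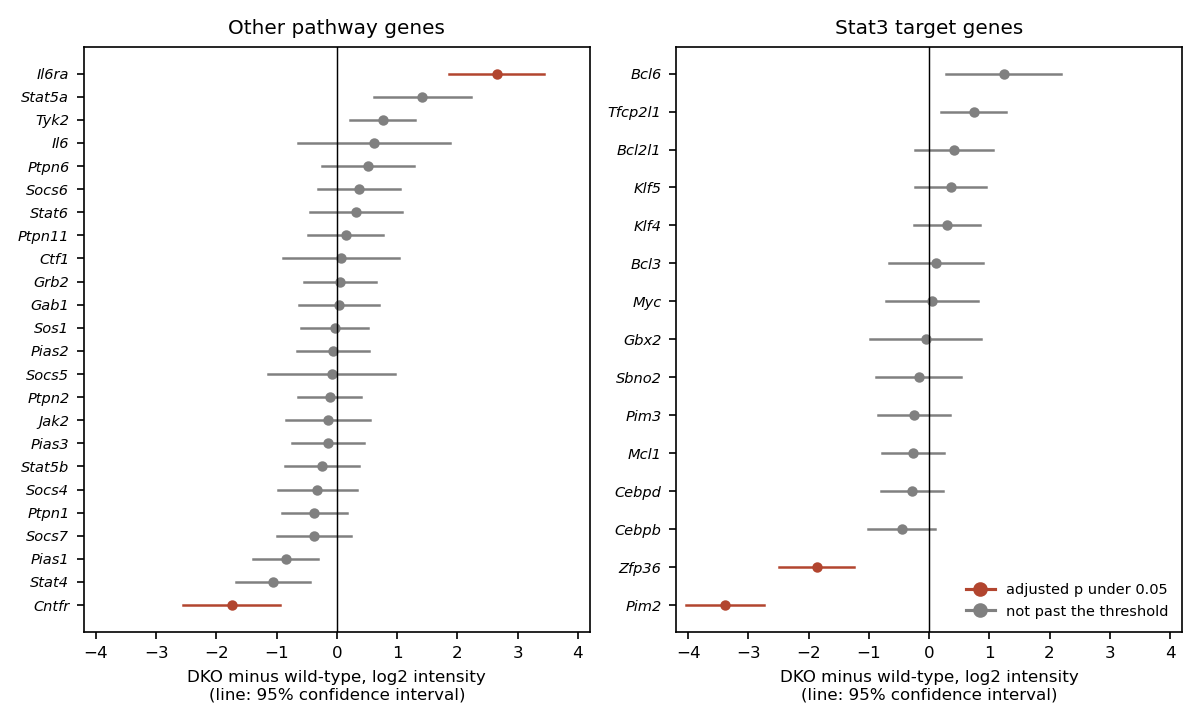
DKO minus wild-type log2 intensity, with 95% confidence intervals, of the tested genes of both lists (24 pathway genes on the left, 15 Stat3 target genes on the right), 1 probe set each. Il6ra lies highest at 2.65 and Pim2 lowest at -3.39; Cntfr and Zfp36 are the other genes past the threshold.

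**Figure D5:**
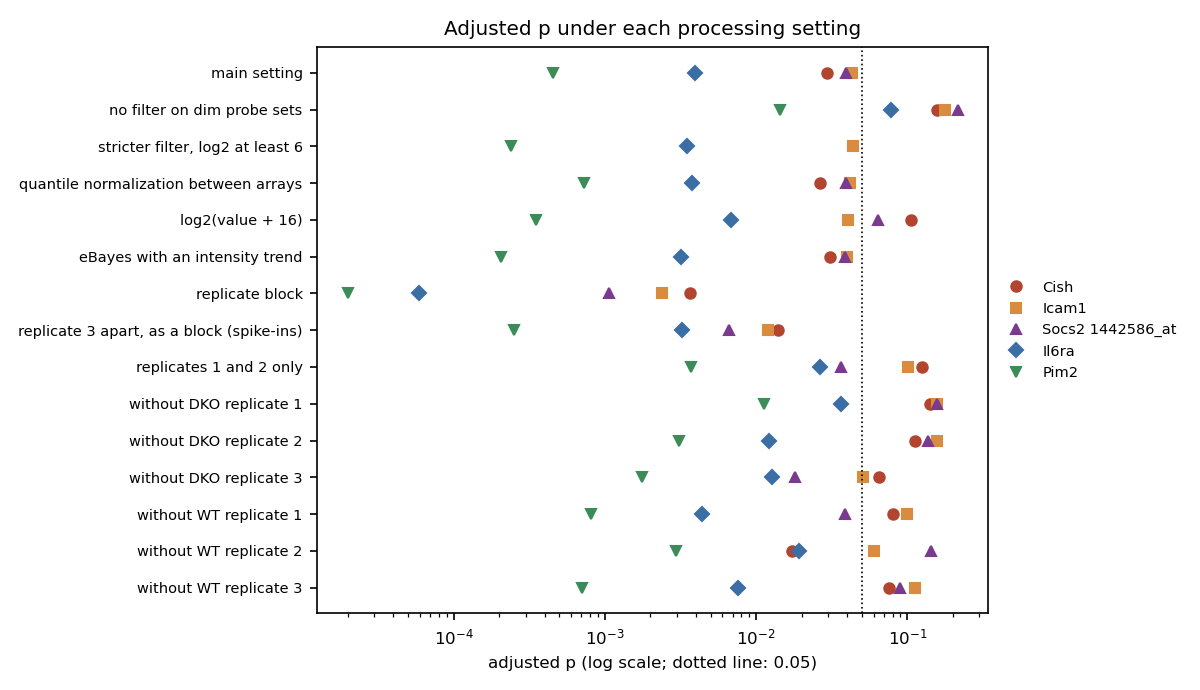
Adjusted p of Cish, Icam1, Socs2 probe set 1442586_at, Il6ra and Pim2 under the main setting and each alternative (log axis, dotted line at 0.05). Pim2 lies below 0.05 in every setting shown, Il6ra in all but the one without a filter, and the 3 member probe sets lie on both sides; with the stricter filter Cish and the Socs2 probe set are untested.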

How the data were processed

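The product of amplifying and labelling the RNA was hybridised to 6 Affymetrix arrays, 3 per genotype, and the sample titles gave genotype and replicate number. The authors deposited 1 intensity per probe set and array, as whole numbers of unstated scale. These are read here as linear intensities, since they are whole and reach 12861, and their log2 was computed. Software in the submitters' processing notes, with no role, is limma 2.16.5, R 2.8.0, GCRMA 2.14.1 and GCOS (genome build: not given in the sources used here). The arrays had lower quartiles of 4 and medians of 10 to 11, and no detection flags were used.

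Probe sets were named from GEO's platform annotation, updated by gene ID through RefSeq (GRCm38.p6): 34958 had 1 gene, 932 several and 9211 none, and 34754 of the first kind matched. DKO and wild-type cells were compared in R 4.3.3 with limma 3.58.1 (moderated two-sided test, Benjamini-Hochberg over 20841 tested probe sets, threshold 0.05). The procedure was tested on simulated data with independent noise between arrays, which held neither a pairing nor a shift of replicate 3. A gene was counted by its tested probe set with the highest mean, which gave 10496 genes. A group under a log2 value of 4 on all its arrays has only a limit. Its fold is then computed against 4, or the measured value where higher.

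The numbers were taken to pair the samples: after subtraction of genotype means, arrays that share a number correlated at 0.427, 0.354 and 0.595. The pairing comes from these values and from the numbers in the titles, whose meaning the labels do not give. At most 1.79% of tested probe sets had equal values on any 2 arrays. The alternatives were other filters, quantile normalization, a pseudocount of 16, an intensity trend, the replicate block, the spike-in block (replicate 3 against the others) and leaving out arrays. The members, lists and tests were chosen with earlier results of these data known. The genes named are the members, Gsk3a and Gsk3b, from each list those that passed or, with fewer than 3, the 3 with the largest difference, and the 3 genes most alike to each of up to 2 members that passed. Stat4, Pias1, Tyk2, Klf4, Klf5, Tfcp2l1 and Gbx2 were named after their values were seen.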

Additional observations from a re-analysis of the deposited data

How the results depend on the processing

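The replicate block takes the replicate numbers as pairs, a choice that rests on these same values. The calls it changed among members, list genes and the genes most like Cish and Icam1 are given beside their results. Tested probe sets that passed numbered 675, against 373 with the stricter filter (log2 at least 6), 1995 with the replicate block, 1117 with the spike-in block, 440 in replicates 1 and 2 only and 290 to 604 without single arrays. Genes that passed numbered 434, against 247 without a filter, 253 with the stricter filter, 1123 with the replicate block, 687 with the spike-in block and 184 to 374 without single arrays. Member genes that passed numbered 2, against 0 without a filter (3 at an unadjusted p under 0.05), 1 with the stricter filter, which leaves Cish untested, 1 with log2(value + 16), 0 in replicates 1 and 2 only (2 unadjusted) and 0 to 1 without single arrays (2 to 3 unadjusted where 0). Member probe sets that passed numbered 3, against 1 without a filter, with the stricter filter, with log2(value + 16) or in replicates 1 and 2 only, 7 with the replicate block, 5 with the spike-in block and 0 to 1 without single arrays (5 to 7 unadjusted where 0). Other pathway genes that passed numbered 2, against 0 without a filter (8 unadjusted), 1 with the stricter filter, with log2(value + 16) or in replicates 1 and 2 only, 6 with the replicate block, 4 with the spike-in block and 1 to 2 without single arrays. Stat3 target genes numbered 2, against 1 without a filter and 2 in each fit without a single array. Leaving the filter out tests more probe sets, and leaving arrays out uses fewer samples. The causes of the shifts in these counts were not tested. Quantile normalization and the intensity trend left these 6 counts within 1.5 times. The sign turned in 15 of 600 single comparisons, none of a probe set that passed and none with a difference over 0.27: Stat3 gave -0.10 (1460700_at) and 0.12 (1426587_a_at) and Gbx2 0.16 in replicates 1 and 2 only. Without single arrays, the differences ran from -0.50 to 0.0086 and -0.91 to 0.36 for Lifr (1454984_at and 1425107_a_at), -0.39 to 0.0436 for Il6st (1437303_at), -0.0495 to 0.41 for Jak1 (1433804_at), -0.11 to 0.10 and -0.24 to 0.14 for the same Stat3 probe sets, -0.0422 to 0.32 for Pim1 and -0.51 to 0.21 for Gbx2. Values near the filter, as of Cish, are coarse because they were rounded to whole numbers.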
